A study of Mus musculus with 141 samples.

Results

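The genes described here are the 32 listed genes of serine, one-carbon and nucleotide synthesis in mouse helper T cells, all of which were found by symbol among the 46517 rows of the deposited expression table. They were chosen by the reactions their enzymes carry out, with earlier results of these data known. Counts of members set beside all genes are therefore descriptions and no independent test of the pathways. In each set of courses described below all 32 passed the filter on low values (at least 1 CPM, reads of a gene scaled to a common library total, in at least 3 libraries). By role they are 3 genes of serine synthesis, 5 of the folate one-carbon pathway, 2 of PRPP synthesis, 6 of IMP synthesis, 4 of the AMP and GMP branches, 4 of UMP and CTP synthesis and 7 of deoxynucleotide supply, with the branched-chain aminotransferase Bcat1 as the last.

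Naive CD4 T cells (CD4+CD25-CD44lo) were taken from spleen and lymph nodes of mice of the inbred strain C57BL/6, for which the labels name no engineered allele, sorted and stimulated with plate-bound antibodies to CD3 and CD28, the T cell receptor complex and its costimulatory partner. RNA of unstimulated cells (0 h) and of cells at 0.5, 1, 2 and 4 h, then 6, 12 and 24 h, then 48 and 72 h was sequenced, as 47 groups of 3 libraries. A number in the sample titles, from 1 to 6, ties libraries into time courses and is here called the course. Courses 1 to 3 were cultured without cytokines (Th0) or with IL6 and TGFb, which together start Th17 differentiation, and courses 4 to 6 with IL6 and TGFb plus IL1b, plus IL21, or plus both, here called the 3 cocktails. Both sets came with their own group of unstimulated cells (0 h), and every later group shared the antibody stimulation. The ages of the mice, and which libraries share a mouse or a culture, are not given in the sources used here, so p-values measure the spread between these libraries only.

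Serine made from glucose, or taken up, donates its side-chain carbon to folate, and the folate-bound carbon units are used to build purine rings and to turn dUMP into dTMP. Purines are assembled on phosphoribosyl pyrophosphate (PRPP) up to IMP, which branches to AMP and GMP, while pyrimidines are made as a free ring that is then joined to PRPP to give UMP and CTP. Ribonucleotide reductase converts ribonucleotides to deoxyribonucleotides for DNA, and T cells that leave rest after stimulation are known to switch on these pathways before they divide.

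The libraries held 15.95 to 47.07 M counted reads (median 25.4 M), and a single read was worth at most 0.0627 CPM. Levels below are CPM scaled by TMM (trimmed mean of M values, which corrects for a shift shared by most genes) within a set of courses, so levels of courses 1 to 3 and 4 to 6 are not on a common scale. The 3 libraries of a group are given in course order. The cultures without cytokines of course 1 at 48 and 72 h stood apart: their log2 distance from the other libraries of their group (root mean square over genes) was 0.43 and 0.63, where the median library of the set had 0.16. Summed T cell markers ran from 2032 to 6009 CPM at 0, 24 and 72 h. Summed markers of B cells (5 genes), CD8 T cells (2), myeloid cells (6 of 7 listed), NK or gamma-delta T cells (5) and erythroid cells or platelets (7) each stayed at or under 53.5 CPM there, and all 5 sums had a lower median at 72 h than at 0 h in both sets of courses. Their part in the results was not tested. In such bulk samples, fewer cells of a type and less RNA per cell cannot be told apart. Changes are log2 changes ± SE of log2(scaled CPM + 0.5) from limma, fitted on all genes and all groups of a set, and a change with an adjusted p below 0.05 is said to be called. The spread of a gene is shared by all groups of a set, so SE and p-values can understate the spread of more variable groups. The groups without cytokines at 48 and 72 h, whose libraries had distances of 0.24 to 0.63, are of that kind. Library values are given mostly for called members picked because their groups did not overlap. For those members a lack of overlap follows from the choice and is no further result.

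Stimulation without cytokines raised nearly every member of these pathways by 24 h, with highest means spread from 4 to 24 h for most of them. At 4 h, 25 of 32 members were higher than at 0 h and 5 were lower, against 34.8% and 38% of all genes tested, and the members' median log2 change was 1.64 against -0.05 over all genes. At 24 h, 29 members were higher and 2 lower (all genes 35.9% and 36.8%), with a median of 2.08 against -0.03. By 72 h, 28 were still higher and 2 lower (all genes 33.2% and 32.2%), but the median had come down to 1.10. The first hour differed, as 8 members were higher and 16 lower than at 0 h (all genes 28.5% and 28.8%), with a median of -0.31 against -0.01 over all genes. Scaling bears on that hour, since without TMM the median of all genes moved by -0.17, the share of higher genes among all calls went from 49.8% to 34.1%, and 5 members were called higher and 19 lower.

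**Figure D1:**
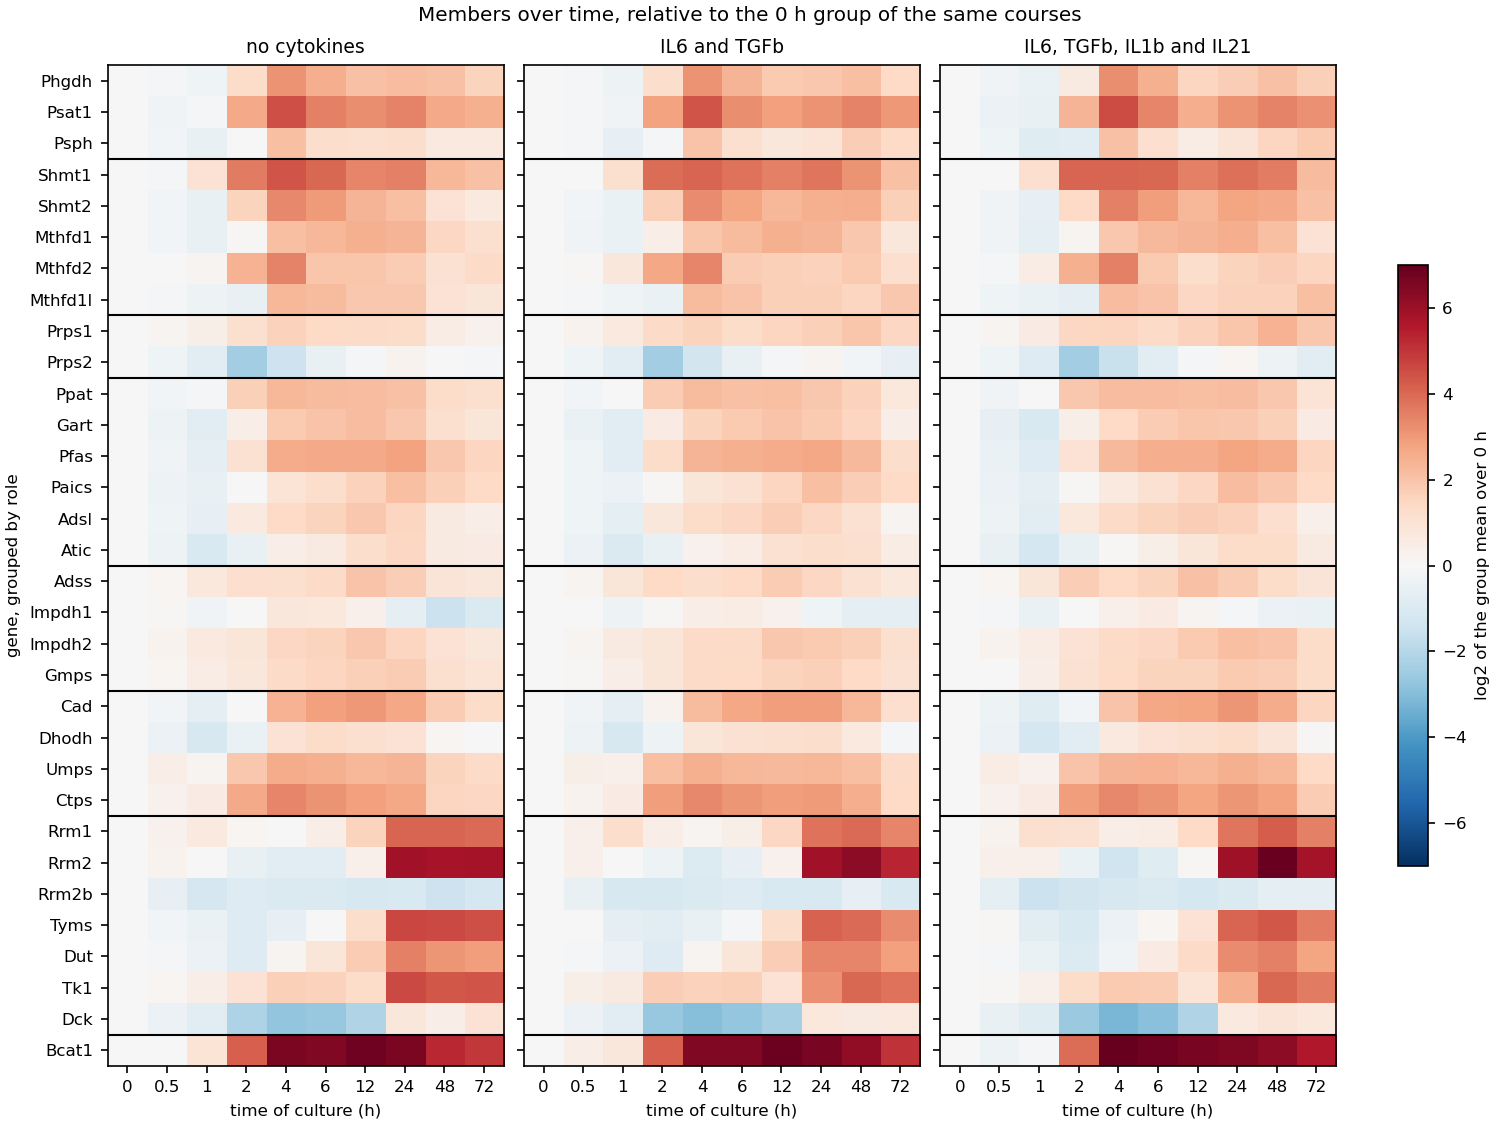
Each cell shows the log2 ratio of a member's group mean (3 libraries) to the 0 h group of the same courses; columns are times in h, rows are members grouped by role, and the panels are cultures without cytokines, with IL6 and TGFb, and with all 4 cytokines. Most rows of the upper roles turn red from 2 to 4 h and pale by 72 h, while Rrm1, Rrm2, Tyms, Dut and Tk1 turn dark red at 24 h, and Rrm2b is below its 0 h level at every later time.

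As a description of timing, the highest group mean without cytokines fell at 4 h for 12 members (Phgdh, Psat1, Psph, Shmt1, Shmt2, Mthfd2, Mthfd1l, Prps1, Ppat, Impdh1, Umps and Ctps), at 6 h for Dhodh, at 12 h for 7 (Mthfd1, Gart, Adsl, Adss, Impdh2, Cad and Bcat1) and at 24 h for 9 (Prps2, Pfas, Paics, Atic, Gmps, Rrm2, Tyms, Dut and Tk1). Rrm1 was highest at 48 h, Dck at 72 h and Rrm2b at 0 h. For 19 members, every library at the time of the highest mean was above every library at the time of the next highest mean. Mthfd1l, Prps1, Ppat, Impdh1, Gmps, Dhodh, Umps, Rrm1, Rrm2, Tyms, Tk1, Dck and Bcat1 were the 13 for which libraries of these times overlapped. Both times were picked by rank from the same values, and the share of all genes with such a separation is not given here. The time of the highest mean was the same with IL6 and TGFb for 25 members, the same in the 3 cocktails for 29, and the same in all 5 conditions for 17. By role, the genes of serine synthesis all had their highest means at 4 h, a time they shared with genes of other roles. Those that make IMP were spread from 4 to 24 h, and those of deoxynucleotide supply had their highest means from 24 h on, apart from Rrm2b.

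The 3 enzymes of serine synthesis were all higher at 4 h, the time of their highest mean. Psat1, the aminotransferase of the second step, stood at 31.8, 38.6 and 35.4 CPM at 0 h and at 841, 781 and 782 CPM at 4 h without cytokines. The groups were far apart, with a log2 change of 4.49 ± 0.16 (adjusted p = 2.91e-26). Phgdh, the dehydrogenase that opens the pathway from the glycolytic intermediate 3-phosphoglycerate, changed by 3.16 ± 0.17, and Psph, the phosphatase that releases serine, by 2.11 ± 0.14. At 24 h Psat1 was still 3.49 ± 0.16 above 0 h, Phgdh 2.14 ± 0.17 and Psph 1.22 ± 0.14.

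The folate enzymes of the cytosol and of mitochondria all rose as well by 4 h, and Shmt1 was the first to be called higher. Shmt1, the cytosolic serine hydroxymethyltransferase, went from 14.3, 15.7 and 15.2 CPM at 0 h to 25.7, 29.3 and 37.2 CPM at 1 h. It was the member with the largest called rise at that time, 0.99 ± 0.23 (adjusted p = 0.000246), with no overlap between the groups. That call and the one of Adss at 1 h were lost without course 3. At 4 h Shmt1 stood at 336, 326 and 325 CPM, a change of 4.41 ± 0.23. Shmt2, its mitochondrial counterpart, was lower at 1 h (-0.52 ± 0.10) and then higher at 4 h (3.39 ± 0.10), at 959, 994 and 873 CPM against 82.5, 94.4 and 91.3 CPM at 0 h. The log2 ratio of Shmt2 to Shmt1 CPM in a library was accordingly 2.53 ± 0.04 (SD, n = 3) at 0 h, 0.42 ± 0.22 at 2 h and 1.51 ± 0.09 at 4 h; the change of such a ratio with time can be read, its size cannot, since the transcripts differ in length.

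Downstream of serine, Mthfd2, the mitochondrial dehydrogenase and cyclohydrolase known for its low level in resting adult cells, had risen by 3.47 ± 0.14 at 4 h and was back to 1.78 ± 0.14 above 0 h at 24 h. Mthfd1l, the mitochondrial enzyme that releases formate, rose by 2.33 ± 0.12 at 4 h, and Mthfd1, the cytosolic enzyme that takes formate up again, by 2.10 ± 0.12. Mthfd1 had its highest mean at 12 h, and the log2 ratio of Mthfd1 to Mthfd1l went from -0.01 ± 0.02 (SD, n = 3) at 0 h to -0.24 ± 0.09 at 4 h and 0.62 ± 0.06 at 12 h.

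The stretches just upstream of 2 genes with their highest mean without cytokines at 4 h and 2 with theirs at 24 h are shown as examples. They run 5′ to 3′ on the gene's strand from 250 to 26 bases before the RefSeq transcript start (GRCm38.p6): chr19:15925085-15925309 for Psat1, chr6:83317630-83317854 for Mthfd2 and chr5:30073651-30073875 for Tyms on the minus strand, and chr12:24708004-24708228 on the plus strand for Rrm2. Capitals mark a match to a searched motif.
Psat1: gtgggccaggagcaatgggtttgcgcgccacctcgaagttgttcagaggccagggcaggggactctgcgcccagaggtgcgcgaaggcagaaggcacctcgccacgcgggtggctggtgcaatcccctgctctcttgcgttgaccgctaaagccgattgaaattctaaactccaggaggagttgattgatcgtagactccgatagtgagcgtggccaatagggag
Mthfd2: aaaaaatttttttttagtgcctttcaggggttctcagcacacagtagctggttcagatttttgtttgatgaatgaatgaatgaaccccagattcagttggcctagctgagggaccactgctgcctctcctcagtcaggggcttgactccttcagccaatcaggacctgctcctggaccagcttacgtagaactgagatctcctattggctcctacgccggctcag
Rrm2: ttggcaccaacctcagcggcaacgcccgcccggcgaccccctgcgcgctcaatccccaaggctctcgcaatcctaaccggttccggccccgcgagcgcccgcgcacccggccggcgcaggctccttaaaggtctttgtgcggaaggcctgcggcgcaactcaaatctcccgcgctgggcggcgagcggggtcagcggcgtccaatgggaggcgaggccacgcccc
Tyms: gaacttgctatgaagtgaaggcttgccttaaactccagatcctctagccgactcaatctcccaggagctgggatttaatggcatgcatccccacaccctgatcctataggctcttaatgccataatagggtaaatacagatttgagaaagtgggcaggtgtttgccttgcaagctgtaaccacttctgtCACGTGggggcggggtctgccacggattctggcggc
The searched letters were the E-box CACGTG, bound by MYC and related factors, the E2F octamers TTTGGCGC, TTTCCCGC, TTTCGCGC and TTTGCCGC, and the ATF4 composite site TGATGCAA, each on both strands and none overlapping another here. Among the 29 members with a 300-base promoter in the RefSeq table (250 bases before to 50 after the start), 4 held the E-box (13.79%: Atic, Impdh2, Paics and Tyms), against 7.15% of 32851 promoters of that length. An E2F octamer was in 2 of 29 (6.897%: Ppat and Prps2) against 2.265% of all promoters, and the ATF4 letters were in 0 of 29 against 0.8949%. Members were counted by gene and the background by promoter entry, without restriction to genes tested here, so these shares are not strictly alike. The E-box of Tyms begins 61 bases before the start. The stretch of Rrm2 held 72.0% G and C and that of Mthfd2 48.9%, against a median of 52.0% over the same stretch of all promoters, and of these motifs the 4 stretches held the E-box of Tyms alone.

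**Figure D2:**
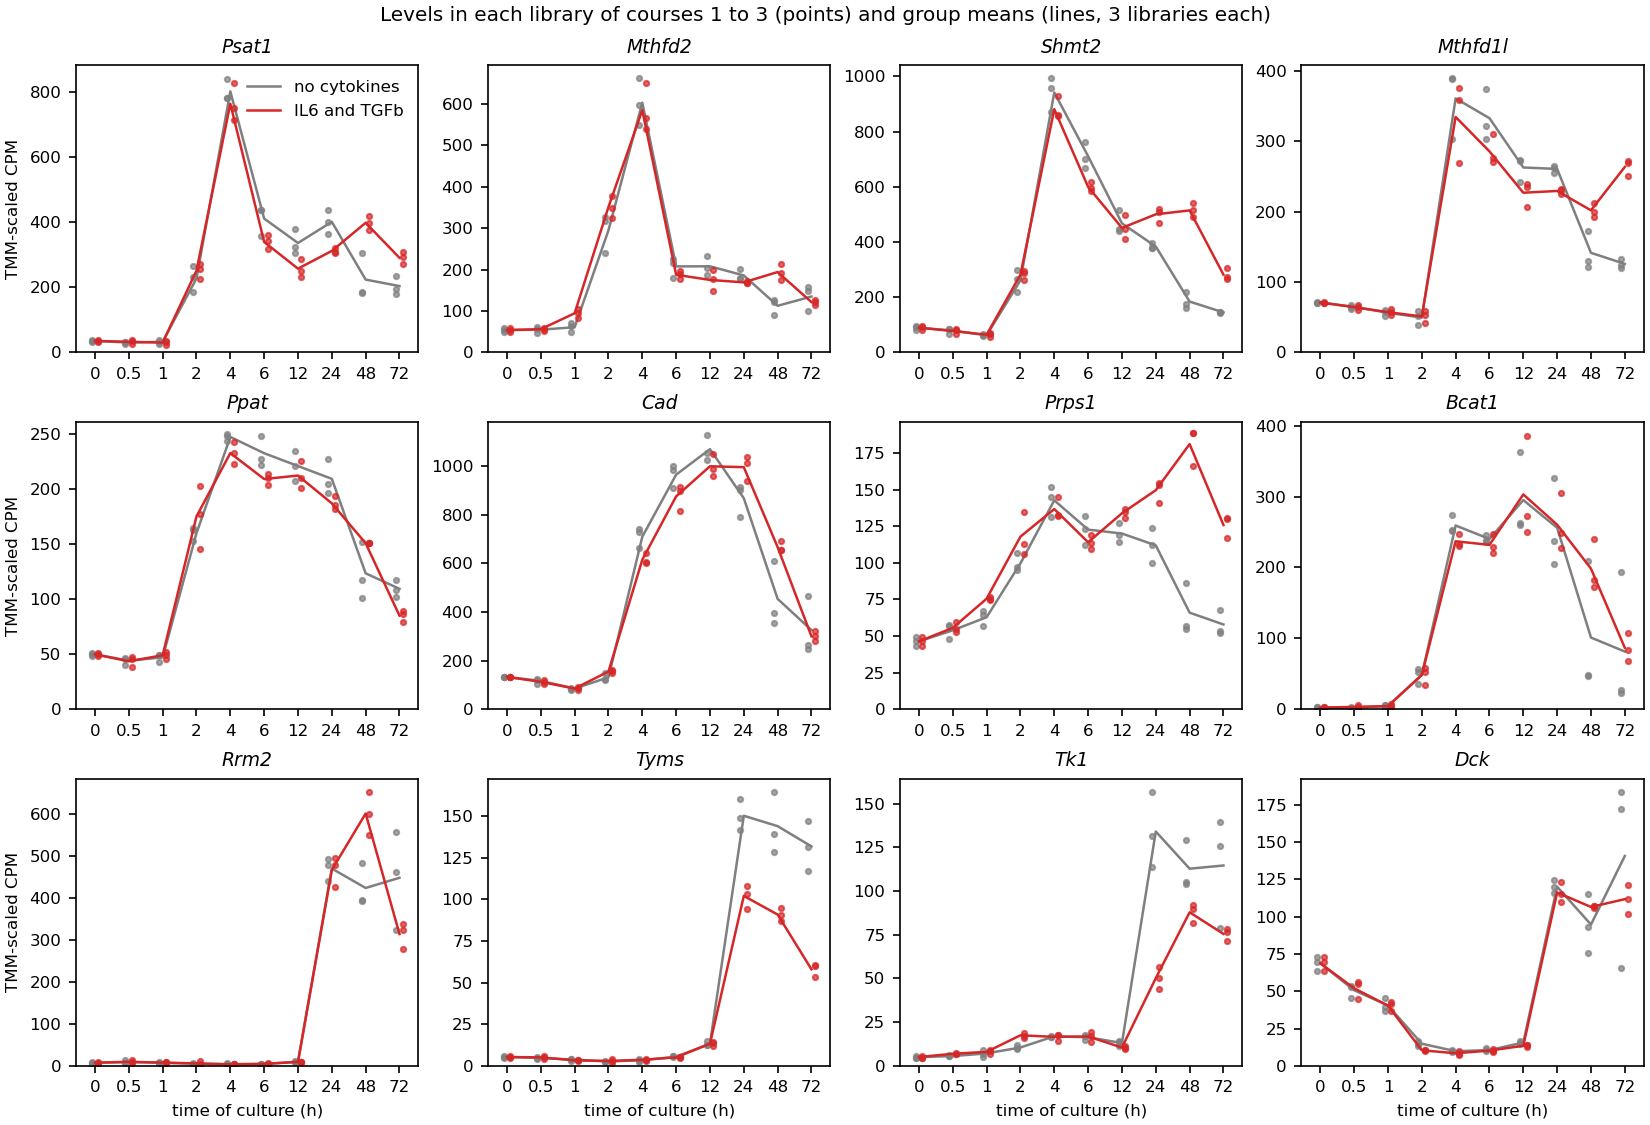
Points are TMM-scaled CPM in each library of courses 1 to 3 at each time in h, without cytokines (gray) and with IL6 and TGFb (red), and lines join group means of 3 libraries; each panel is a member with its own linear axis from 0. Psat1, Mthfd2 and Shmt2 peak sharply at 4 h, Rrm2, Tyms and Tk1 rise between 12 and 24 h, and Dck dips from 2 to 12 h before it rises.

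PRPP, the sugar phosphate on which purines and pyrimidines are built, is made by the closely related synthetases Prps1 and Prps2, whose transcripts moved in opposite directions. Prps2 stood at 131, 138 and 132 CPM at 0 h and 23.8, 22.7 and 25.7 CPM at 2 h. At 4 h it was at 47.8, 53.6 and 45.5 CPM, a change of -1.44 ± 0.11 (adjusted p = 4.19e-16), with all 3 libraries below those at 0 h. From 0 to 4 h Prps1 went from 46.7, 49.1 and 43.01 CPM to 152, 131 and 145 CPM, a rise of 1.61 ± 0.11. The log2 ratio of Prps1 to Prps2 in a library moved from -1.52 ± 0.07 (SD, n = 3) at 0 h to 2.03 ± 0.14 at 2 h and -0.48 ± 0.16 at 24 h, when the change of Prps2 from 0 h was 0.22 ± 0.11 and not called (adjusted p = 0.0581). Reads of Prps1 may be shared with Prps1l3, a near-identical copy, so that the level of Prps1 is uncertain.

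All 6 genes of IMP synthesis were called higher at 4 h and at 24 h, but 5 of them had first fallen at 1 h. Atic, the enzyme of the last steps to IMP, went from 136, 144 and 163 CPM at 0 h to 65.3, 70.6 and 75.8 CPM at 1 h, a change of -1.06 ± 0.14 that separated the groups completely. At 4 h its change was 0.45 ± 0.14, a call lost without course 2 and not made in courses 4 to 6, and at 24 h Atic was 1.44 ± 0.14 above 0 h. Ppat, the amidotransferase that commits PRPP to purine synthesis, was the exception at 1 h, at -0.08 and not called, and it rose by 2.30 ± 0.10 at 4 h. Pfas, which adds the amide nitrogen in the middle of the pathway, reached 2.83 ± 0.14 at 24 h, Gart, which carries steps that use folate-bound formyl groups, 1.90 ± 0.15, and Adsl, a lyase of both IMP and AMP synthesis, 1.47 ± 0.10. Paics, which carries the steps between Gart and Adsl, was 0.96 ± 0.10 above 0 h at 4 h and 2.11 ± 0.10 at 24 h. Ppat and Paics lie head to head and their RefSeq models overlap by 277 bases on opposite strands; whether counting used strand is not given, and Ppat had its highest mean at 4 h and Paics at 24 h.

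From IMP onward, all 4 genes of the branches were higher at 4 h, and Impdh1 was then the exception at 24 h. Adss, which opens the AMP branch, was already higher at 1 h, at 154, 171 and 174 CPM against 99.6, 105 and 94.9 CPM at 0 h (0.73 ± 0.16). Impdh2, the inducible IMP dehydrogenase of the GMP branch, stood at 110.3, 119.7 and 136 CPM at 1 h against 70.4, 78.96 and 74.5 CPM at 0 h, a rise of 0.70 ± 0.08. Both groups at 1 h were clear of 0 h. Gmps, the GMP synthetase, rose by 1.32 ± 0.09 at 4 h and 1.77 ± 0.09 at 24 h. Impdh1, the isoform regarded as constitutive, rose by 0.79 ± 0.14 at 4 h, then stood at 105, 104 and 115 CPM at 24 h against 180.1, 172 and 172 CPM at 0 h. That was a change of -0.69 ± 0.14 (adjusted p = 1.85e-05), and at 72 h Impdh1 stood at 50.8, 108 and 102 CPM, -1.08 ± 0.14 from 0 h with course 1 the lowest. The log2 ratio of Impdh1 to Impdh2 ran from 1.22 ± 0.12 (SD, n = 3) at 0 h to -0.98 ± 0.13 at 24 h, so within a day Impdh1 fell relative to Impdh2.

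The pyrimidine genes rose by 4 h, and Ctps most. Ctps, the CTP synthetase, changed by 3.43 ± 0.17, Umps, which joins the ring to PRPP and gives UMP, by 2.59 ± 0.11 and Cad, the trifunctional enzyme of the first steps, by 2.42 ± 0.14. Cad went on to 2.70 ± 0.14 at 24 h. Dhodh, the mitochondrial dehydrogenase of the pathway, was first lower at 1 h, at 11.1, 8.39 and 11.9 CPM against 22.5, 21.6 and 25.001 CPM at 0 h (-1.11 ± 0.13, no overlap), then higher by 1.01 ± 0.13 at 4 h. At 72 h it was the pyrimidine gene whose change from 0 h was not called (-0.04 ± 0.13).

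Most genes of deoxynucleotide supply rose late. At 4 h, 4 of the 7 were lower than at 0 h and Tk1 was higher; Rrm1 and Dut were not called. Of the lower ones Rrm2 (-0.84) lost its call without the filter and without course 2 (-0.55). At 24 h, 6 of the 7 were higher. Rrm2, the regulated small subunit of ribonucleotide reductase, stood at 5.19, 9.28 and 7.69 CPM at 0 h and 478, 493 and 441 CPM at 24 h, a change of 5.93 ± 0.29 (adjusted p = 1.10e-21). Tyms, the thymidylate synthase that uses folate-bound carbon to make dTMP, went from 4.54, 5.84 and 5.51 CPM to 160.0, 149 and 141 CPM, 4.70 ± 0.16. No library at 24 h came near the 0 h libraries for either gene. Tk1, the thymidine kinase of dividing cells, changed by 4.60 ± 0.16, Rrm1, the large subunit of the reductase, by 4.07 ± 0.11 and Dut, which keeps dUTP out of DNA, by 3.54 ± 0.10. At 72 h Rrm2 stood at 324, 463 and 559 CPM and Tyms at 117, 131 and 147 CPM, log2 changes from 0 h of 5.83 ± 0.29 and 4.51 ± 0.16.

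Other genes of the group fell early. Dck, the deoxycytidine kinase of salvage, dropped from 69.7, 73.1 and 63.5 CPM at 0 h to 10.5, 9.67 and 9.31 CPM at 4 h, with no overlap between the groups. That change of -2.75 ± 0.18 (adjusted p = 1.97e-17) was the largest fall of a member at 4 h, and by 24 h Dck was 0.80 ± 0.18 above 0 h. Rrm2b, the small subunit known as a target of p53 that serves cells outside S phase, went from 43.6, 41.2 and 42.6 CPM at 0 h to 16.4, 19.4 and 19.5 CPM at 1 h, -1.19 ± 0.13. It was at 19.5, 19.1 and 23.01 CPM at 4 h, 17.4, 22.5 and 19.6 CPM at 24 h and 17.9, 19.1 and 19.5 CPM at 72 h, with changes from 0 h of -1.04, -1.08 and -1.15 (SE of each 0.13). All libraries at these times were below the lowest at 0 h. The log2 ratio of Rrm2 to Rrm2b was -2.48 ± 0.44 (SD, n = 3) at 0 h, -1.28 ± 0.24 at 1 h and -2.29 ± 0.39 at 4 h, and then passed to -0.96 ± 0.26 at 12 h and 4.54 ± 0.17 at 24 h.

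Bcat1, the cytosolic branched-chain aminotransferase, which exchanges nitrogen between branched-chain amino acids and glutamate, had the largest rise of all members at 4 and 24 h. It stood at 0.563, 2.77 and 3.11 CPM at 0 h, 253, 274 and 251 CPM at 4 h and 205, 326 and 237 CPM at 24 h. The change was 6.80 ± 0.58 at 4 h and 6.76 ± 0.58 at 24 h, and its 0 h levels are so low that the added 0.5 CPM lowers these values. At 72 h Bcat1 was 4.43 ± 0.58 above 0 h, with libraries at 194, 26.4 and 23.3 CPM, of which course 1, a library that stood apart, was the highest.

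**Figure D3:**
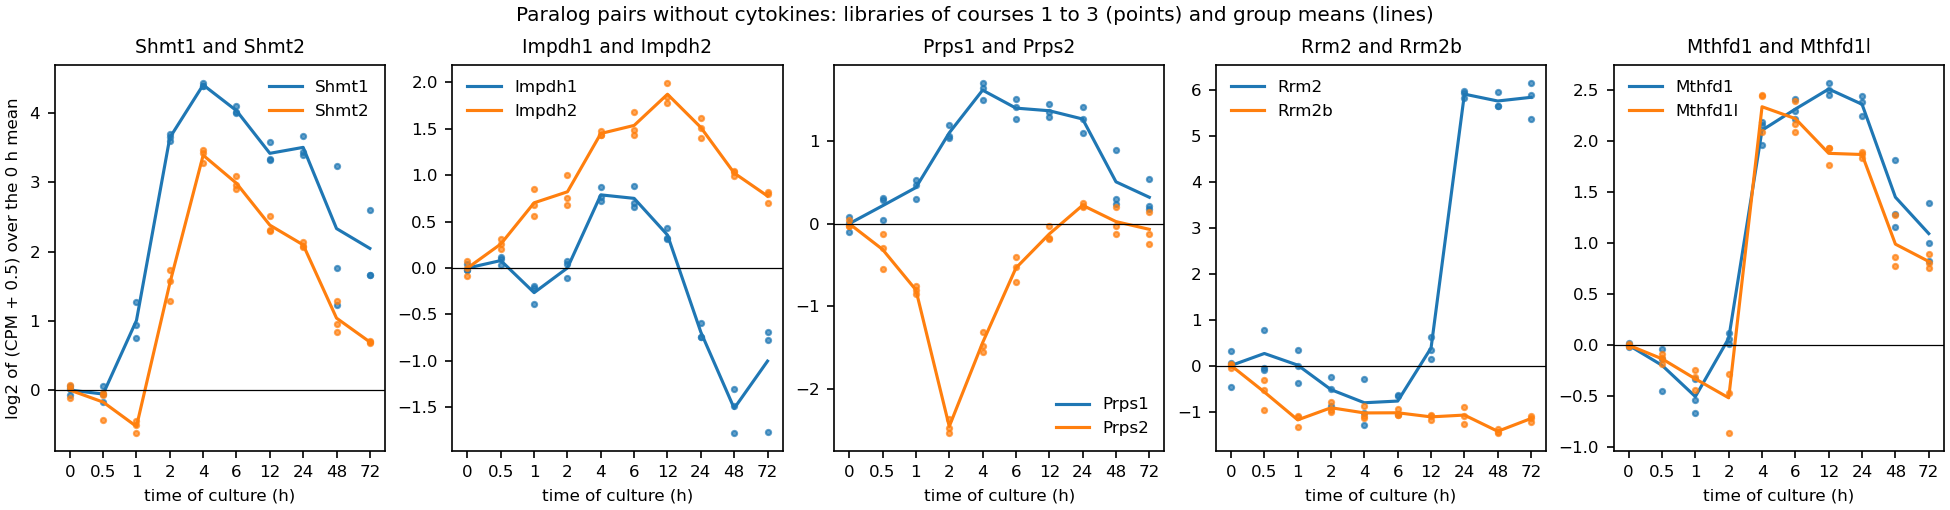
Lines are log2 ratios of the group mean of each paralog (scaled CPM + 0.5) to its 0 h mean without cytokines, and points are the 3 libraries; the horizontal axis is time in h and the black line marks no change. Prps1 and Prps2 diverge from the first hours and Rrm2 and Rrm2b by 24 h, while Shmt1 precedes Shmt2 and Impdh1 drops below its 0 h level from 24 h on.

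Between 24 and 72 h most of the synthesis genes came down, while without cytokines Dut was the only gene of deoxynucleotide supply that was called. In those cultures 0 members were higher and 26 lower (limma; all genes 27% and 24.6%), with a median of -0.89 against 0.02 over all genes. Bcat1 changed by -2.33 ± 0.58, Shmt1 by -1.52 ± 0.23 from 163, 197 and 168 CPM to 93.6, 48.8 and 48.6 CPM, and Cad by -1.47 ± 0.14 from 788, 915 and 900.3 CPM to 466, 247 and 262 CPM. In each of these, all 3 libraries at 72 h were under all 3 at 24 h, although the call of Bcat1 was lost without course 2 and without course 3. By the Bcat1 values given above, course 1 was only slightly lower at 72 h, and courses 2 and 3 carried its fall. In a fit of only these 6 libraries Adss, Bcat1, Impdh1, Mthfd2, Phgdh and Prps2 were not called. The 6 members that were not called were Rrm1, Rrm2, Rrm2b, Tyms, Tk1 and Dck, at changes from -0.25 to 0.09, all of them genes of deoxynucleotide supply.

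With IL6 and TGFb, 2 members were higher at 72 h than at 24 h and 24 lower (all genes 29.4% and 27%), with a median of -0.70. The largest falls were those of Cad (939, 1012 and 1036 to 278, 319.6 and 300.3 CPM, -1.73 ± 0.14), Shmt1 (200.3, 201 and 212 to 55.4, 69.1 and 64.5 CPM, -1.70 ± 0.23) and Mthfd1 (365, 354 and 396 to 111, 135 and 121 CPM, -1.60 ± 0.12). Each of these was picked for groups without overlap. Tk1 rose from 56.5, 50.1 and 43.9 to 76.4, 71.6 and 78.4 CPM (0.59 ± 0.16) and Psph from 42.3, 39.6 and 42.1 to 52.3, 58.3 and 57.003 CPM (0.43 ± 0.14), the latter a call lost without course 2 and without course 3. Psat1 (-0.10), Prps1 (-0.25), Mthfd1l (0.20), Rrm2, Rrm2b and Dck were not called.

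The effect of IL6 and TGFb on these genes, at a given time against cultures without cytokines, was called for 3 members at 2 h and 6 at 24 h in the fit of all groups. At 2 h 3 members were higher and 0 lower (limma; all genes 5.59% and 6.84%), out of 5 at an unadjusted p under 0.05, and edgeR and DESeq2 gave the same counts. Tk1 was at 16.2, 18.98 and 17.3 CPM with and 10.2, 11.7 and 9.70 CPM without the cytokines (0.71 ± 0.16, adjusted p = 0.00107), Mthfd1 at 102, 107 and 82.1 and 73.6, 76.4 and 71.1 CPM (0.39 ± 0.12) and Rrm1 at 55.1, 49.01 and 42.6 and 39.4, 35.03 and 40.6 CPM (0.34 ± 0.11). The 3 treated libraries were above the 3 untreated ones in each. At this time libraries of the same course deviated together, and a fit of these 6 libraries alone with the course as a replicate block, tried after the data were seen, called 15 members, 14 of them higher. The share of all genes called in that fit is not given here, so its count cannot be set against other genes. Within courses 1, 2 and 3, 26, 29 and 13 members were higher, 12 of them in all 3, and 3 were lower in all 3. Without course 2, 1 member, Tk1, was called at 2 h. Shares of all genes are not given for these counts either.

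At 24 h the cytokines were followed by 4 members higher and 2 lower (all genes 13.5% and 12.6%). The share of members called higher was near that of all genes. Tk1 was at 56.5, 50.1 and 43.9 CPM with the cytokines and at 157, 114 and 132 CPM without, a change of -1.40 ± 0.16 (adjusted p = 9.96e-10), and Tyms at 108, 103 and 94.3 against 160.0, 149 and 141 CPM, -0.56 ± 0.16. Both were lower in all treated libraries than in any untreated one. The higher members were Prps1 (153, 141 and 155 against 99.6, 124 and 112 CPM, 0.42 ± 0.11), Shmt2 (521, 471 and 509 against 379, 396 and 377 CPM, 0.38 ± 0.10), Impdh1 (133, 134 and 153 against 105, 104 and 115 CPM, 0.37 ± 0.14) and Impdh2 (0.31 ± 0.08). These groups did not overlap either, which was a condition for giving library values. A fit of only these 6 libraries called 18 members, 8 higher and 10 lower, and within courses 8 members were higher and 16 lower in all 3. The shares of all genes for these counts are not given here, so the counts cannot be set against other genes. Without course 3, 2 members were called and Prps1, Shmt2, Impdh1 and Tyms were not; Impdh1 and Tyms lost their calls without course 2 as well, and Impdh2 without course 1. The CD8 markers, which the study's sort of CD4 cells should leave low, summed to 35.7 to 44.0 CPM without and 2.20 to 2.78 CPM with the cytokines at 24 h, and the T cell markers to 3083 to 3541 and 2241 to 2352 CPM; their part in these differences was not tested.

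At 48 h most members were called higher with IL6 and TGFb than without, though few of those of deoxynucleotide supply were. Of 32 members 23 were higher and 1 lower (all genes 27.6% and 25.4%), with a median of 0.50 against -0.03 over all genes. Shmt2 was at 540.1, 514 and 489 CPM with and 218, 161 and 174 CPM without the cytokines, a change of 1.49 ± 0.10 (adjusted p = 5.69e-16). Prps1 was at 166, 189 and 189 against 86.4, 56.8 and 54.5 CPM, 1.48 ± 0.11. Ctps was at 162, 179 and 173 against 137, 63.8 and 48.4 CPM, 1.18 ± 0.17, and within courses 1, 2 and 3 it differed by 0.24, 1.48 and 1.82. In all 3 genes the treated libraries lay above the untreated ones, and course 1 was the highest of the untreated. Psph followed at 1.04 ± 0.14, Psat1 at 0.87 ± 0.16, Rrm2b at 0.83 ± 0.13 and Impdh1 at 0.82 ± 0.14. Bcat1 (1.34 ± 0.58) and Shmt1 (1.09 ± 0.23) were called although their libraries overlapped. The call of Bcat1 was lost with edgeR (0.97), DESeq2 (0.94), a pseudocount of 0.1, no filter and no TMM. The lower member was Tyms, at 87.1, 94.8 and 90.5 against 128, 164 and 139 CPM, -0.65 ± 0.16 with no overlap.

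By role at 48 h, 2 of 3 serine genes, all 5 folate genes, 1 of 2 PRPP genes, 5 of 6 IMP genes, 3 of 4 genes of the AMP and GMP branches and all 4 pyrimidine genes were higher, against 2 of 7 genes of deoxynucleotide supply (Rrm2b and Dut). Without course 2 all 5 of the IMP genes lost their calls, and a fit of only these 6 libraries called 15 members. Phgdh (0.07), Paics (0.07), Adss (0.20), Rrm1 (-0.09), Rrm2 (0.51), Dck (0.19), Tk1 (-0.35) and Prps2 (-0.23) were not called. Within courses 1, 2 and 3 the median difference over members was 0.18, 0.60 and 0.70, with 23, 26 and 27 members higher and 20 higher in all 3. Bcat1 differed by -0.19, 2.31 and 1.89 and Shmt1 by -0.07, 1.41 and 1.93, so course 1, whose untreated library stood apart, had values slightly under 0 for them. Shmt2 (1.31, 1.67 and 1.49) and Impdh2 (0.63, 0.59 and 0.63) differed by similar amounts in the 3 courses. Without course 1 there were 25 calls, 24 of them higher, without course 2 14 and without course 3 16. Bcat1, Cad, Mthfd1, Ppat, Pfas, Gart and Gmps were lost both times. Shares of all genes are not given for the counts within courses, without a course or in the fit of only these libraries. Those counts cannot be set against other genes. Without TMM the median of all genes moved by -0.12, the share of higher genes among all calls went from 52.0% to 38.0%, and 18 members were called higher and 4 lower. The CD8 markers summed to 13.4 to 18.9 CPM without and 3.21 to 4.27 CPM with the cytokines at 48 h, the T cell markers to 3720 to 4105 and 2627 to 2943 CPM, and the B cell markers to 2.60 to 12.1 and 1.10 to 1.84 CPM, again with their part not tested.

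At 72 h, 7 members were higher and 7 lower with the cytokines, near the shares of all genes (22.7% and 23.6%). The median was -0.04 over the members against -0.05 over all genes. Within courses 1, 2 and 3 the median difference over members was -0.19, 0.09 and -0.06, with 6 members higher and 7 lower in all 3. The shares of all genes for these counts within courses are not given here. Course 1, whose untreated library stood apart, had the opposite sign to courses 2 and 3 for some members that were not called. Bcat1 differed by -1.50, 2.01 and 1.82, Cad by -0.74, 0.37 and 0.19, and Dck by 0.76, -0.75 and -0.59. Prps1 was at 117, 131 and 129.8 CPM with and 67.6, 52.3 and 53.5 CPM without the cytokines (1.12 ± 0.11, adjusted p = 1.54e-11). Mthfd1l was at 272, 250.3 and 269 against 132, 125 and 120.2 CPM (1.06 ± 0.12) and Shmt2 at 265, 307 and 273 against 146, 144 and 145 CPM (0.95 ± 0.10). All treated libraries of these 3 were above the untreated. Psph (0.73), Psat1 (0.52), Impdh1 (0.42) and Impdh2 (0.35) made up the rest of the higher members. Tyms stood at 53.6, 59.6 and 60.6 against 117, 131 and 147 CPM (-1.17 ± 0.16), Tk1 at 76.4, 71.6 and 78.4 against 78.8, 126 and 139 CPM (-0.56 ± 0.16) and Rrm1 at 350.4, 383 and 404 against 444, 554 and 639.9 CPM (-0.51 ± 0.11). Those lower members also showed no overlap, narrowly for Tk1, which differed by -0.04, -0.81 and -0.83 within courses 1, 2 and 3. The other lower members were Prps2 (-0.50), Ppat (-0.36), Gart (-0.35) and Adsl (-0.26). In a fit of only the libraries compared, Adsl, Gart, Impdh1, Rrm1 and Tk1 were not called. Gart lost its call and its sign without course 1 (0.019), Adsl, Ppat and Impdh1 lost theirs without course 1, and Psat1, Tk1 and Gart without course 2 and without course 3. Without TMM the share of higher genes among all calls at 72 h went from 49.0% to 38.6%, and the members' split was 7 higher and 8 lower. The CD8 markers summed to 10.9 to 15.7 CPM without and 5.26 to 6.29 CPM with the cytokines, and the NK and gamma-delta markers to 3.27 to 40.5 and 1.95 to 2.80 CPM, a part not tested either.

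**Figure D4:**
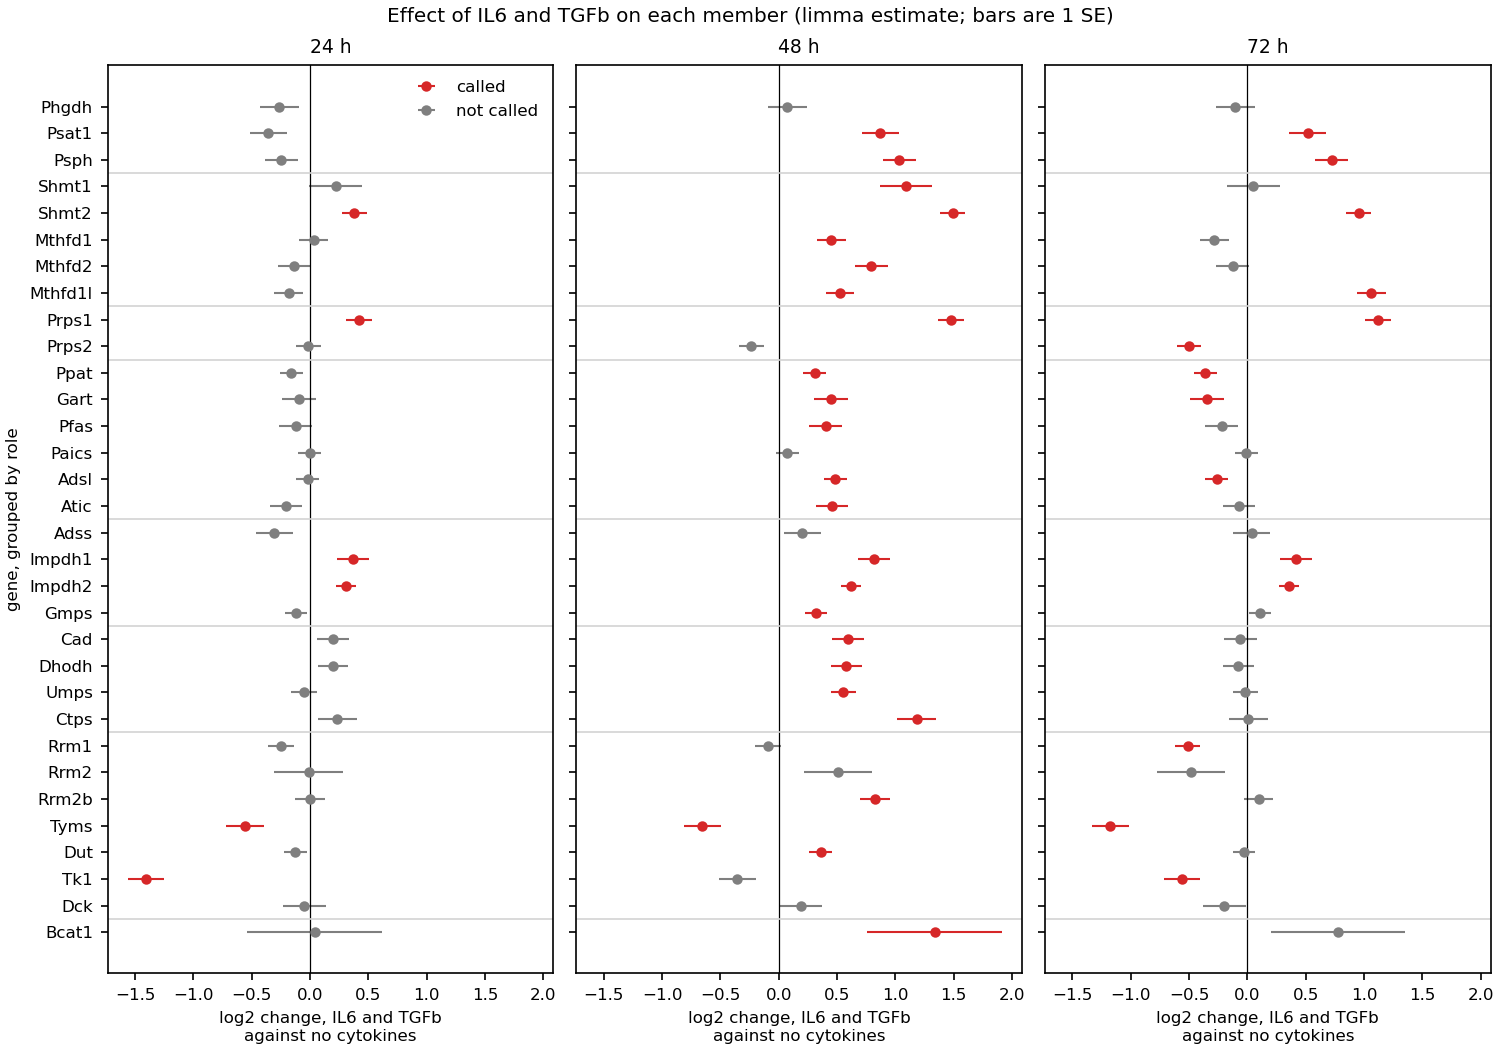
Points are log2 changes of each member between cultures with IL6 and TGFb and cultures without cytokines at 24, 48 and 72 h, with bars of 1 SE, red where called; members are grouped by role. At 48 h the points sit to the right of 0 apart from Prps2, Rrm1, Tk1 and Tyms, and Tyms lies to the left at all 3 times.

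In the paralog pairs, partners were often called apart, although whether their effects differed was not tested. Prps1 was called higher at 24, 48 and 72 h and Prps2 lower at 72 h, and the log2 ratio of Prps1 to Prps2 at 48 h was 0.65 ± 0.04 (SD, n = 3) with and -1.07 ± 0.49 without the cytokines. The copy Prps1l3 had 61.0 ± 1.41 CPM (SD, n = 3, unscaled) with and 62.0 ± 7.57 CPM without them at 48 h, when Prps1 had 189 ± 13.1 and 76.0 ± 20.7 CPM on the same scale. Mthfd1l was higher at 72 h while Mthfd1 was not called (-0.28), with a log2 ratio of Mthfd1 to Mthfd1l of -1.11 ± 0.20 with and 0.24 ± 0.24 without the cytokines. Shmt2 was higher at 24, 48 and 72 h, and Shmt1 was called at 48 h alone among these times. Impdh1 and Impdh2 were both called higher at all 3 times, but at 72 h Impdh1 differed by 1.2005, -0.0017 and 0.06 within courses 1, 2 and 3 and by 0.08 without course 1, and its 24 h call was lost without course 2, without course 3 and without the filter.

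The difference of the cytokine effect between 72 and 24 h was tested directly, and 6 members had a higher and 2 a lower effect at 72 h (all genes 12.6% and 8.91%). Mthfd1l differed most, at 1.25 ± 0.17 (adjusted p = 2.65e-07), since its effect was -0.18 at 24 h and 1.06 at 72 h. Psph (0.97 ± 0.20), Psat1 (0.88 ± 0.22), Tk1 (0.85 ± 0.22), Prps1 (0.70 ± 0.16) and Shmt2 (0.57 ± 0.15) were the other higher ones, and for Tk1 the effects were -1.40 at 24 h and -0.56 at 72 h. Tyms (-0.62 ± 0.23) and Prps2 (-0.49 ± 0.15) had the lower effects. Without course 2, and again without course 3, 3 members were called, and without course 1 10. Without TMM the share of higher genes among all calls went from 58.6% to 48.6%, and the members' counts were the same.

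Courses 4 to 6 give the stimulation response in libraries that the comparisons above did not use. Averaged over the 3 cocktails, 25 members were higher and 6 lower at 4 h than at 0 h (all genes 38.4% and 40.6%), 30 higher and 2 lower at 24 h (42.2% and 40.7%), and 28 higher and 3 lower at 72 h (44.7% and 39.9%). The cultures compared in courses 1 to 3 had no cytokines, so the sets differ in cytokines as well as in course. Of the 25 members higher at 4 h in each set, 24 were the same, with Atic called in courses 1 to 3 only and Rrm1 in courses 4 to 6 only. All 29 higher members of courses 1 to 3 at 24 h were among the 30 of courses 4 to 6, and the 28 at 72 h were the same. Whether a member called in a single set differed between the sets was not tested.

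At 4 h of the cocktails the 9 libraries of Bcat1 ran from 249.6 to 280.5 with a median of 268 CPM, against 0.537, 3.13 and 1.17 CPM at 0 h (7.18 ± 0.26). Psat1 ran from 719.6 to 827 with a median of 758 CPM against 30.7, 37.1 and 28.9 CPM (4.57 ± 0.11) and Shmt1 from 227 to 267 with a median of 245 CPM against at most 14.9 CPM (4.11 ± 0.12). Dck ran from 5.65 to 7.09 with a median of 6.29 CPM against 56.8, 65.98 and 55.4 CPM (-3.14 ± 0.11), Prps2 from 35.9 to 45.1 with a median of 42.5 CPM against 128, 141 and 112 CPM (-1.60 ± 0.07), and Rrm2 from 1.49 to 4.04 with a median of 2.31 CPM against 5.26, 5.35 and 5.98 CPM (-1.06 ± 0.19). These 6 were picked for groups without overlap, and the early fall of Dck and Prps2 was seen in all 6 courses.

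At 24 h the largest rises were again those of Bcat1 (from 164 to 221 with a median of 193 CPM, 6.71 ± 0.26), Rrm2 (from 323 to 408 with a median of 358 CPM, 5.92 ± 0.19) and Tyms (from 76.1 to 96.2 with a median of 88.5 CPM against 4.23, 4.24 and 5.06 CPM at 0 h, 4.13 ± 0.12). The lower members were Rrm2b (from 16.9 to 21.3 with a median of 18.9 CPM against 39.6, 44.1 and 38.01 CPM, -1.09 ± 0.09) and Impdh1 (from 139 to 162 with a median of 152 CPM against 183, 178 and 162 CPM, -0.21 ± 0.07). At 72 h Rrm2 (from 313 to 364 with a median of 323 CPM, 5.78 ± 0.19), Bcat1 (from 68.97 to 129 with a median of 107 CPM, 5.78 ± 0.26) and Tk1 (from 60.8 to 96.4 with a median of 73.1 CPM against 4.62, 4.96 and 6.27 CPM, 3.68 ± 0.13) led, and Rrm2b (from 17.2 to 27.9 with a median of 23.4 CPM, -0.78 ± 0.09), Prps2 (from 67.5 to 88.1 with a median of 74.5 CPM, -0.75 ± 0.07) and Impdh1 (from 103 to 138 with a median of 125 CPM, -0.51 ± 0.07) were lower. As these members were picked for groups without overlap, their cocktail and 0 h libraries were apart, though at 24 h the highest cocktail library of Impdh1 was just under the lowest at 0 h. Prps1 split by course: at 48 h it had 284, 158 and 170.4 CPM in courses 4, 5 and 6 with IL1b, 273, 177 and 221 CPM with IL21 and 304, 169 and 215 CPM with both. Course 4 was the highest in each cocktail at that time, and at 72 h too (187, 96.5 and 97.8, 281, 105 and 159, and 268, 92.6 and 125 CPM).

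Few members were called between the cocktails late in culture. As means over 24, 48 and 72 h, the IL1b cocktail had 3 members higher and 1 lower than the IL21 cocktail (all genes 4.55% and 6.88%): Mthfd2 (0.29 ± 0.10, adjusted p = 0.0458), Mthfd1l (0.15 ± 0.05) and Impdh1 (0.14 ± 0.05) were higher and Prps2 (-0.22 ± 0.05, adjusted p = 0.000684) lower. At 24 h Prps2 had 137, 141 and 129 CPM with IL1b, 165, 156 and 159.9 CPM with IL21 and 138, 132 and 144 CPM with both, so the IL21 libraries were above all the others at that time. At 72 h Mthfd2 had 131, 161 and 184 CPM with IL1b and 80.6, 129.7 and 134 CPM with IL21, groups that overlapped, with course 4 the lowest in both. Without course 6 none of the 4 was called, and without course 5 1 was.

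With both IL1b and IL21 against IL21, 0 members were higher and 1, Prps2, was lower (-0.20 ± 0.05; limma, all genes 3.14% and 3.64%), with 6 at an unadjusted p under 0.05 and the same counts from edgeR and DESeq2. That call was lost without course 5 and without course 6. With both cytokines against IL1b, 0 members were called in either direction, as were 0% of all genes higher and 0% lower by limma. There 0 members had an unadjusted p under 0.05, edgeR and DESeq2 called 0 members, and the largest difference was 0.15 for Prps1 (0.15 ± 0.12).

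Genes around these pathways, listed with earlier results of these data known, are given as counts beside the shares of all genes quoted above for the same comparisons. Of 19 tested genes of other folate and methionine steps, 11 were higher and 6 lower at 4 h without cytokines (all genes 34.8% and 38%), led by Slc19a1, the reduced folate carrier (3.67 ± 0.21), and Amt, of the glycine cleavage system (-1.83 ± 0.20). At 24 h, 11 were higher and 6 lower (35.9% and 36.8%). At 48 h IL6 and TGFb had 10 of these genes higher and 4 lower than no cytokines (27.6% and 25.4%), and Aldh1l2, the mitochondrial formyltetrahydrofolate dehydrogenase, was 3.58 ± 0.24 higher. Of 22 tested genes of nucleotide salvage and interconversion, 12 were higher and 8 lower at 4 h and 14 higher and 6 lower at 24 h, against the same shares of all genes as above. The share of lower genes in both lists was near that of all genes at 4 h. Cmpk2, the mitochondrial UMP-CMP kinase, was the most reduced at both times (-4.23 ± 0.31 and -3.88 ± 0.31), and Upp1, uridine phosphorylase, was 5.40 ± 0.15 higher with IL6 and TGFb at 72 h.

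Genes of DNA replication and division were counted in the same way. All 20 were higher at 24 h without cytokines (median 4.41, from 2.22 to 5.90), whereas 5 were higher and 9 lower at 4 h (all genes 34.8% and 38%). With IL6 and TGFb, 2 of 20 were higher and 0 lower at 48 h (all genes 27.6% and 25.4%), and 0 were higher and 6 lower at 72 h (22.7% and 23.6%), with medians of 0.05 and -0.39; the share of lower genes at 72 h was near that of all genes. Beside these, the members of deoxynucleotide supply that were lower at 72 h were Rrm1, Tyms and Tk1; the part of cell division in their differences was not tested.

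Limits of counting bear on single members. In RefSeq 7 members overlap another protein-coding gene (Psph with Cct6a, Shmt2 with Ndufa4l2, Ppat with Paics, Gmps with Slc33a1, Cad with Atraid and Tk1 with Afmid), by 14 to 1101 bases. How the authors' counting treated reads in these stretches, and whether it used strand, is not known from the labels.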

How the data were processed

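RNA-seq of 141 mouse libraries was deposited by the authors as a table of CPM, whose columns all have the same total; 100% of values came out as whole reads (tolerance 0.001), on which edgeR called 24 members at 48 h (22 higher, 2 lower; limma 23 and 1). TopHat, HTSeq, mm9 and GRCh37, a human build, are named in the submitters' processing notes without a role or version. Because the deposited unit was CPM and not reads, each set of courses (57 and 84 libraries) was scaled by TMM (edgeR 4.0.16) and fitted on log2(CPM + 0.5) with limma 3.58.1 (R 4.3.3, trend; 38 and 56 residual degrees of freedom) over all its groups, on 14695 and 14859 genes with at least 1 CPM in 3 libraries. P-values were Benjamini-Hochberg adjusted over all genes and called under 0.05; all are two-sided.

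The members and lists were chosen with earlier results of these data known. Library values are given for up to 3 members per direction and comparison, those with the largest called change among members whose groups did not overlap, and for paralog pairs. The alternatives were edgeR and DESeq2 1.42.0 on the recovered reads, pseudocounts of 0.1 and 2, no filter, no TMM, the course as a replicate block, only the libraries compared, and leaving out each course. A fit of only the libraries compared with the block was added after the data were seen. Same-numbered libraries deviated together (every pair's correlation over 0.1) at 1 h against 0 h (0.246 to 0.504) and between cytokine conditions at 2 h (0.405 to 0.507), and not in every pair of the other 8 comparisons of 2 groups in courses 1 to 3. Promoters came from RefSeq (GRCm38.p6), which held 29 of the 32 members (not Rrm2b, Dhodh or Pfas). The scripts were tested on simulated data. The 37 mitochondrially encoded genes had 0 reads.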

Additional observations from a re-analysis of the deposited data

Results flagged for a closer look

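The effect of IL6 and TGFb, on the log2 scale, differed between 72 and 24 h for 8 members by the direct test of that difference (limma, adjusted p under 0.05). It was higher at 72 h for Mthfd1l (1.25), Psph (0.97), Psat1 (0.88), Tk1 (0.85), Prps1 (0.70) and Shmt2 (0.57), and lower for Tyms (-0.62) and Prps2 (-0.49). Of these, Mthfd1l and Psph were called in every alternative run and with each course left out. Psat1, Shmt2, Prps1, Prps2 and Tyms were lost without course 2 and without course 3, and Tk1 without course 1, whose 72 h library without cytokines stood apart from its group. Tyms was lost with a pseudocount of 0.1 and without the filter as well, and Tk1 in a fit of only the libraries compared.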

How the results depend on the processing

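Over 17 comparisons 321 member calls were set against their alternatives. Of 3745 such results 3543 kept direction and call, 201 lost the call and 1 reversed, Gart at 72 h with IL6 and TGFb, whose log2 change ran from -0.55 to 0.019 over the fits without a course. The cause was not tested. Losses numbered 2 with edgeR, 4 with DESeq2, 2 with a pseudocount of 0.1, 0 with 2, 13 without the filter and 8 without TMM. With the course as replicate block in the fit of all groups 0 calls were lost, and 2 members instead of 1 were called with IL1b and IL21 against IL21. A fit of only the libraries compared gave 5 calls of IL6 and TGFb at 2 h (3 before), 18 at 24 h (6), 15 at 48 h (24), 9 at 72 h (14) and 2 for IL1b against IL21 (4). With the replicate block added to those fits, an alternative chosen after the data were seen, the counts were 15, 21, 11 and 5, and for 72 h against 24 h without cytokines 0 in place of 26; it has few residual degrees of freedom. Shares of all genes are not given for these fits of only the libraries compared, nor for the fits below without the filter or without a course. No filter left 1 call at 2 h and 1 for IL1b against IL21. Leaving out each course in turn gave 1 to 3 calls at 2 h, 2 to 8 at 24 h, 14 to 25 at 48 h, 10 to 18 at 72 h, 3 to 10 for the difference of the effects, 0 to 3 for IL1b against IL21 and 0 to 1 for both against IL21. For 72 h against 24 h it gave 24 to 25 without cytokines and 22 to 26 with IL6 and TGFb. For stimulation it gave 19 to 27 at 1 h, 28 to 30 at 4 h, 31 to 32 at 24 h and 29 to 30 at 72 h. Depth bears most on Bcat1, whose lowest 0 h library had 0.537 CPM where a read was worth up to 0.0627 CPM.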
